A study of Mus musculus with 20 samples.

Results

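Immunoglobulin genes were examined in inguinal subcutaneous white adipose tissue (iWAT), a fat depot in which a lymph node and, in females, the mammary gland are embedded. The genes were taken by biotype, as all entries of the GENCODE vM1 annotation (assembly NCBIM37) whose biotype begins with IG_. This rule gave 481 genes, of which 463 were in the deposited table of 36611 genes. The label did not cover all of them. Only 250 of the 481 lay in immunoglobulin loci, because that annotation release files T cell receptor segments under the same biotypes. A further 227 genes lay in T cell receptor loci and 4 lay elsewhere, and those 4 (Ptcra, Gm4242, Gm17472 and AC158671.1) were listed at 0 in every library. The immunoglobulin genes comprised 142 heavy chain, 105 kappa chain and 3 lambda chain entries. The constant genes Iglc2, Iglc3 and Ighg2c carry another biotype and so fell outside the rule, while Igha, Ighd and Iglc1 were not analysed here.

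RNA came from 20 female C57BL/6 mice aged 6 months, in 4 groups of 5. Control mice were littermates homozygous for the floxed allele (Tmem120a fl/fl) without Cre, labelled wild type. Ad-Tmem120a-/- mice carried the same floxed alleles with Cre driven by the adiponectin promoter (Adip-Cre), which deletes exons 2 and 3 in adipocytes only, so lymphocytes kept the gene. For 15 weeks each genotype received food with 10.5% of fat (low fat diet, LFD) or with 58% (high fat diet, HFD). Levels are given as TPM, a unit of transcript abundance that scales reads by transcript length to the same total in each library, and reads as the estimated counts of the same quantification. Libraries held between 54605101 and 92387737 estimated counts. Tmem120a itself was at 57.9 to 132 TPM in control LFD, 21.5 to 74.0 TPM in Ad-Tmem120a-/- LFD, 83.3 to 196 TPM in control HFD and 29.5 to 89.7 TPM in Ad-Tmem120a-/- HFD libraries. It differed between genotypes by -1.61 ± 0.34 on LFD and -1.67 ± 0.29 on HFD on the log2 scale (SE), with edgeR adjusted p of 0.929 and 0.173.

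An antibody is built from heavy chains joined to kappa or lambda light chains. Each B cell assembles its own variable exon by cutting and joining one variable (V), one joining (J) and, for heavy chains, one diversity (D) segment, and splices it to a constant (C) gene that sets the class, with Ighm giving IgM and Ighg genes giving IgG. The cell and all its descendants then use that one combination, so RNA spread over many V segments comes from many clones, whereas RNA from a few large clones or plasma cells, which secrete antibody and hold very large amounts of its RNA, falls on few segments. Bulk RNA cannot tell more cells from more RNA per cell.

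The segments that led most libraries are shown first, since the results turn on them. Each line gives the last 120 bases of the V exon followed by the recombination signal, read from NCBIM37, with the first 7 bases after the exon (heptamer) and the last 9 bases of the signal (nonamer) in capitals. The nonamer position was set by the spacer, 23 bases for heavy and 12 bases for kappa segments. Ighv11-2 is at chr12:115286413-115286571 (minus strand), Igkv14-126 at chr6:67846517-67846664 (plus strand), Ighv1-26 at chr12:116026544-116026702 (minus strand) and Gm16637, whose RefSeq symbol is Igkv10-96, at chr6:68581929-68582076 (minus strand).
Ighv11-2: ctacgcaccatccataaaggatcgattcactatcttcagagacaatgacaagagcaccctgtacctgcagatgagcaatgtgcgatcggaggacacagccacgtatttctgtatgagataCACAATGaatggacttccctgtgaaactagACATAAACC
Igkv14-126: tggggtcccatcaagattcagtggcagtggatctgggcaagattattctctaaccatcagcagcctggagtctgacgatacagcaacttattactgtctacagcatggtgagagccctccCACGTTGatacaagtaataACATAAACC
Ighv1-26: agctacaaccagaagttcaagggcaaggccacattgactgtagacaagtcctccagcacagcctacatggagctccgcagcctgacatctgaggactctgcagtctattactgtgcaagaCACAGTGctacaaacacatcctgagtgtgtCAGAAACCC
Gm16637: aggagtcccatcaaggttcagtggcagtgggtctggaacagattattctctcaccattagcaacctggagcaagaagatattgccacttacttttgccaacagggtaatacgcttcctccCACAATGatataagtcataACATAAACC

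Only Ighv1-26 of these 4 had the heptamer CACAGTG. The heptamer stood directly after the exon in 71 of 112 heavy, 75 of 99 kappa and 0 of 3 lambda V entries. Among entries with a mean of at least 0.5 TPM it was present in 61 of 80 heavy and 59 of 71 kappa segments, and below that mean in 10 of 32 and 16 of 28.

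V promoters carry an octamer, bound by Oct factors. The octamer ATGCAAAT was searched on both strands in the 250 bases before each annotated start. It was found for 85 of 112 heavy V entries (75.9%), 61 of 99 kappa V entries (61.6%) and all 3 lambda V entries, against 2.09% of 37308 genes of the annotation. With a mean of at least 0.5 TPM it was found for 68 of 80 heavy and 42 of 71 kappa segments. Below that mean it was found for 17 of 32 and 19 of 28, so only the heavy segments had it more often when expressed. The 120 bases before Ighv11-2 (chr12:115286916-115287035, minus strand) and Igkv14-126 (chr6:67846051-67846170, plus strand) are shown because the shares of these segments moved together between libraries, with the octamer in capitals.
Ighv11-2: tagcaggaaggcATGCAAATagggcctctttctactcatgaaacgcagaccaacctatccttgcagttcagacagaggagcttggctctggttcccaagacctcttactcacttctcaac
Igkv14-126: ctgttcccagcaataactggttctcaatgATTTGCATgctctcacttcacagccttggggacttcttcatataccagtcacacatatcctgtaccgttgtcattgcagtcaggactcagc
The octamer began 108 bases before the start of Ighv11-2 and, in the reverse orientation, 91 bases before that of Igkv14-126.

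What could be measured depended on segment length. Reads were 150 bases long. The D segments (10 to 29 bases) drew no count in any library, and the immunoglobulin J segments (36 to 54 bases) together drew at most 9 counts in a library. Ighj4 (chr12:114666725-114666778, minus strand) and the longest heavy D segment, Ighd5-7 (chr12:114702735-114702763, minus strand), are printed whole to show their size.
Ighj4: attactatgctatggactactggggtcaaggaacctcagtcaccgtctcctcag
Ighd5-7: aggcagctagcctctgcagtgccacaacc
Of the 463 genes in the table, 314 passed 3 counts in at least 1 library and 204 had a mean of at least 0.5 TPM. Those 204 comprised 160 immunoglobulin and 44 T cell receptor genes. They included 80 heavy V, 71 kappa V and all 3 lambda V segments. Many V segments are close relatives, which limits how surely a read is given to one of them. The median identity to the nearest other V segment of the locus was 93.9% for the 80 heavy segments and 92.6% for the 71 kappa segments, and 35 and 23 of them exceeded 95%. Ighv11-2 was 98.9% identical to Ighv11-1, which itself reached at most 1.16 TPM. Ighv1-26 and Ighv1-34 were 96.6% identical, and Gm16637 was 95.4% identical to Igkv10-94. Igkv14-126 was further from its nearest relative, Igkv14-111, at 91.5%.

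Immunoglobulin genes together made up 0.045% to 1.25% of all TPM. Their summed level was 447, 5602, 8380, 7861 and 4467 TPM in control LFD replicates 1 to 5. It was 9241, 12433, 12434, 4067 and 12478 TPM in Ad-Tmem120a-/- LFD replicates 6 to 10. On HFD it was 2745, 944, 7170, 4230 and 4534 TPM in control replicates 11 to 15, and 8830, 3831, 3485, 8862 and 5613 TPM in Ad-Tmem120a-/- replicates 17 to 21. All 4 groups overlapped. Control LFD replicate 1 stood far below the other libraries, and control HFD replicate 12 was next. In both, the B cell gene Cd79a was low as well. Cd79a, a subunit of the B cell receptor, was at 0.0161 TPM in control LFD replicate 1 and 1.22 TPM in control HFD replicate 12, against 1.67 to 18.8 TPM in the remaining 18 libraries. T cell receptor constant genes summed to 7.86 TPM in control LFD replicate 1. In control HFD replicate 12 they summed to 81.5 TPM, above control HFD replicate 11 at 76.0 TPM. Glycam1, listed here as a lymph node stroma marker, was at 0.349 TPM in control LFD replicate 1 and 20.7 TPM in control HFD replicate 12. It was at 13.2 to 738 TPM in the others, so only control LFD replicate 1 lay under their range.

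**Figure D1:**
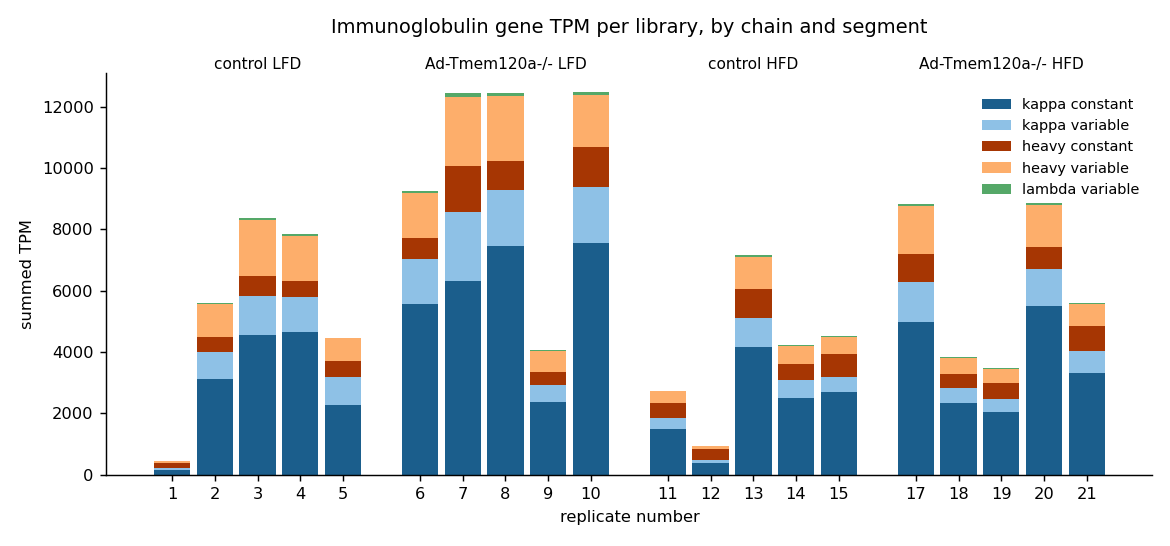
Stacked bars give the summed TPM of immunoglobulin genes in each of the 20 libraries (x axis: replicate number, by group), split by chain and by constant or variable gene. Kappa constant RNA (Igkc) was the largest block in 19 of 20 libraries, and control LFD replicate 1 (447 TPM) and control HFD replicate 12 (944 TPM) held the least.

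The constant genes carried most of the immunoglobulin signal. Igkc, the kappa constant gene (chr6:70676429-70676751, plus strand, 1 exon of 323 bases), was the most abundant at a mean of 3666 TPM. Igkc was at 154, 3118, 4545, 4642 and 2261 TPM in control LFD, and at 5556, 6300, 7441, 2358 and 7539 TPM in Ad-Tmem120a-/- LFD libraries. On HFD it was at 1485, 391, 4169, 2490 and 2710 TPM in control and 4980, 2355, 2032, 5498 and 3304 TPM in Ad-Tmem120a-/- libraries. In 4 of 5 Ad-Tmem120a-/- LFD libraries Igkc lay above every control LFD library, and replicate 9 lay among the controls. The group means were 2944 ± 1853 and 5839 ± 2113 TPM on LFD, and 2249 ± 1413 and 3634 ± 1549 TPM on HFD (SD, n = 5).

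Ighm, the constant gene of IgM (chr12:114659078-114660941, minus strand, 1367 exonic bases), varied less. It was at 160, 303, 284, 337 and 496 TPM in control LFD and at 471, 1154, 625, 294 and 1144 TPM in Ad-Tmem120a-/- LFD libraries. On HFD it was at 440, 353, 812, 488 and 699 TPM in control and 718, 382, 514, 479 and 718 TPM in Ad-Tmem120a-/- libraries. Control LFD replicate 1 kept 160 TPM of Ighm from 16624 counts, beside the lowest Igkc of all libraries and Cd79a close to 0. Control HFD replicate 12 kept 353 TPM. The ratio of Igkc to Ighm was 0.964 and 1.11 in these 2 libraries and between 3.37 and 16.0 in the remaining 18.

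The switched constant genes spread over a wider range. Ighg, which lies between Ighg2c and Ighg1 where RefSeq places Ighg2b, was at 0.522, 146, 318, 125 and 15.7 TPM in control LFD and 142, 315, 279, 53.9 and 91.3 TPM in Ad-Tmem120a-/- LFD libraries. It was at 32.1, 5.96, 110, 23.9 and 37.8 TPM in control HFD and 172, 47.8, 23.2, 220 and 76.8 TPM in Ad-Tmem120a-/- HFD libraries. AI324046, which lies where RefSeq places Ighg3, ranged from 0.0435 to 46.8 TPM, and Ighg1, the constant gene of IgG1, from 0.0479 to 32.3 TPM. Both were lowest in control LFD replicate 1. Ighe, the constant gene of IgE, was at 0 in 16 libraries, and its highest value was 0.385 TPM, from 33 counts, in Ad-Tmem120a-/- LFD replicate 8. The 3 IgG members took 0.382% to 55.1% of heavy constant TPM in control LFD, 11.3% to 35.0% in Ad-Tmem120a-/- LFD, 1.88% to 13.9% in control HFD and 6.20% to 34.1% in Ad-Tmem120a-/- HFD libraries. The share omits Ighg2c and IgA, so it is not the share of switched antibody.

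**Figure D2:**
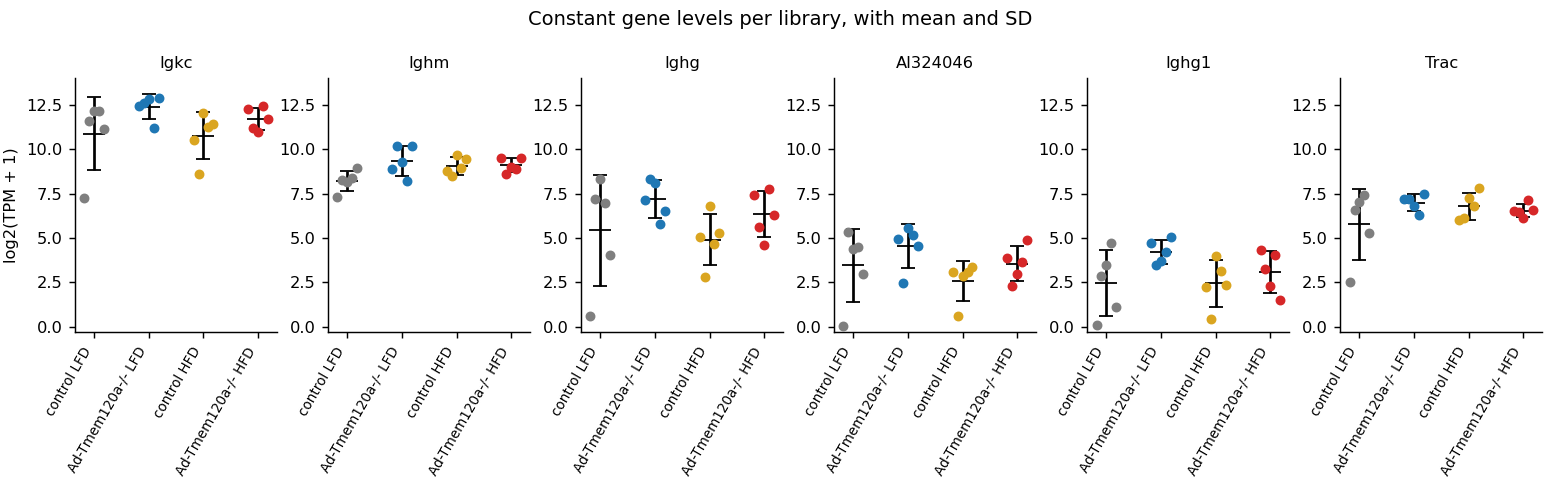
Points are single libraries, on a log2(TPM + 1) axis, for Igkc, Ighm, the 3 IgG members and the T cell receptor gene Trac in the 4 groups, with bars for the mean and SD (n = 5). Ighm ranged only from 160 to 1154 TPM, and the lowest control LFD point of each panel is replicate 1.

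Whether heavy or light chain RNA prevailed among the genes counted depended on the unit. The heavy totals leave out Ighg2c, Igha and Ighd, and the light totals leave out Iglc1, Iglc2 and Iglc3. The shares are thus not those of all heavy and light chain RNA. Per length, heavy chain genes made 23.3% to 51.9% of immunoglobulin TPM, with group means of 32.5% ± 10.96 in control LFD, 25.9% ± 2.83 in Ad-Tmem120a-/- LFD, 32.4% ± 8.86 in control HFD and 26.7% ± 2.16 in Ad-Tmem120a-/- HFD (SD, n = 5). Of the reads themselves, heavy chain genes took 53.3% to 89.9%, so they were in the majority in all 20 libraries. Only the first measure is per length. One TPM of Ighm stood for 112 ± 12.1 counts and one TPM of Igkc for 9.73 ± 0.992 counts (SD over 20 libraries). Among V segments, which have like lengths in both loci, heavy and kappa were close to even, with a ratio of summed TPM of 1.10 ± 0.145 (SD over 20 libraries, range 0.774 to 1.43). Control LFD replicate 1 and control HFD replicate 12 had the highest heavy shares by TPM, 51.9% and 47.9%, and the other 18 libraries lay between 23.3% and 31.6%.

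Constant genes exceeded variable segments in every library. They took 61.8% to 79.5% of immunoglobulin TPM and 75.9% to 95.7% of immunoglobulin counts. The 5 control HFD libraries, at 71.3% to 79.5% of TPM, lay above the 5 control LFD libraries at 61.8% to 70.4%, although by counts these groups overlapped. The Ad-Tmem120a-/- groups overlapped, at 62.6% to 70.8% on LFD and 66.8% to 74.0% on HFD. Lambda V segments were a minor share of light chain V RNA, between 1.45% and 8.37% of TPM. Iglv1, Iglv2 and Iglv3 were each the highest lambda segment in 8, 9 and 3 libraries.

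How far variable RNA fell on few segments differed between libraries, and some leaders recurred across mice. Ighv1-26 and Ighv11-2 each led the heavy locus in 7 libraries. The leading heavy V segment of a library held 13.4% to 65.8% of heavy V TPM. In control LFD the leaders were Ighv6-6 in replicate 1 (62.9%), Ighv1-76 in replicate 2 (36.9%), Ighv1-26 in replicate 3 (65.8%), Ighv1-34 in replicate 4 (42.6%) and Ighv11-2 in replicate 5 (39.3%). These 5 mice thus had 5 different leaders. In Ad-Tmem120a-/- LFD the leaders were Ighv1-26 in replicates 6 (23.4%) and 8 (22.4%), Ighv1-75 in replicates 7 (26.8%) and 9 (16.0%), and Ighv11-2 in replicate 10 (14.8%). In control HFD Ighv11-2 led replicates 11 (13.4%), 12 (14.6%), 14 (20.9%) and 15 (19.8%), and Ighv1-26 led replicate 13 (17.2%). In Ad-Tmem120a-/- HFD Ighv1-26 led replicates 17 (37.8%), 18 (28.8%) and 21 (23.7%), Ighv11-2 led replicate 19 (35.4%) and Ighv1-76 led replicate 20 (22.2%). The lead of control LFD replicate 1 rests on 677 heavy V counts, and every other library had between 972 and 22995. By counts the leader changed in 1 library, Ad-Tmem120a-/- HFD replicate 20, where Ighv1-26 came first.

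Kappa segments behaved alike, with leaders at 10.2% to 55.2% of kappa V TPM. Gm16637 led 8 libraries and Igkv14-126 led 8, while Igkv3-4, Igkv4-91, Igkv5-39 and Igkv6-25 led 1 each. By counts Gm16637 came first in control HFD replicate 13 (7.54%), in place of Igkv5-39. The highest shares were 55.2% for Gm16637 in control LFD replicate 3, and 52.8% and 45.8% for Igkv14-126 in control LFD replicate 5 and Ad-Tmem120a-/- HFD replicate 19. Igkv4-91 led Ad-Tmem120a-/- LFD replicate 7 at 443 TPM and stayed at or under 72.3 TPM elsewhere. Its known partner in B-1 cells, Ighv12-3, was at 2.71 TPM in that library and reached at most 11.8 TPM, in control HFD replicate 13. By family, Ighv1 segments held 56.7% ± 17.4 of heavy V TPM (SD over 20 libraries) with 55 members, and Ighv11, with 2 members, 9.55% ± 11.8. The Igkv14 family held 17.7% ± 15.4 of kappa V TPM.

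**Figure D3:**
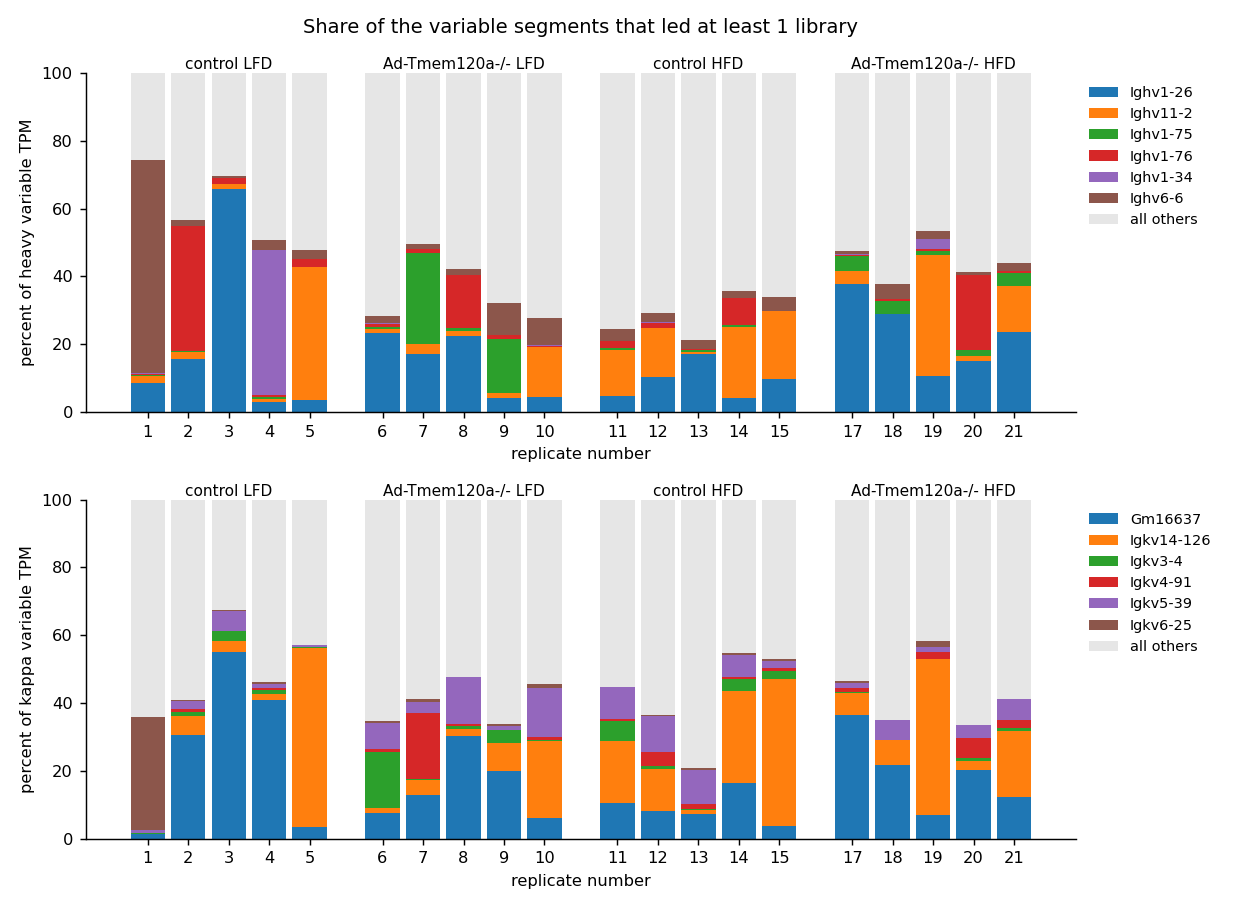
Bars give, for each library (x axis: replicate number, by group), the percent of heavy V TPM (upper panel) and kappa V TPM (lower panel) held by each segment that led at least 1 library, with all other segments in grey. Control LFD libraries had a different heavy leader each, and orange blocks of Ighv11-2 and Igkv14-126 appear in the same libraries.

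Ighv11-2 and Igkv14-126 led together. This heavy and light pair is known from B-1a cells, self-renewing B cells of the body cavities whose antibodies bind phosphatidylcholine. Ighv11-2 was at 1.41, 23.04, 24.1, 12.2 and 285 TPM in control LFD and 16.8, 68.9, 29.0, 10.6 and 254 TPM in Ad-Tmem120a-/- LFD libraries. It was at 51.6, 13.49, 6.26, 122 and 110 TPM in control HFD and 57.7, 0.0877, 161, 19.7 and 94.5 TPM in Ad-Tmem120a-/- HFD libraries. Igkv14-126 was at 0.107, 50.02, 39.5, 22.3 and 495 TPM in control LFD and 22.4, 99.1, 38.4, 47.7 and 418 TPM in Ad-Tmem120a-/- LFD libraries. On HFD it was at 67.9, 11.4, 11.8, 160 and 207 TPM in control and 83.1, 35.3, 195, 30.5 and 140 TPM in Ad-Tmem120a-/- libraries. Both were highest in control LFD replicate 5 and Ad-Tmem120a-/- LFD replicate 10, from different groups.

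In all 7 libraries led by Ighv11-2, Igkv14-126 led the kappa locus, and it led 8 in all. Over the 20 libraries the share of Ighv11-2 in heavy V TPM and that of Igkv14-126 in kappa V TPM had a Spearman rho of 0.84, the highest for Ighv11-2 among the 71 kappa segments measured, the next being Igkv2-109 at 0.42. It was also the highest for Igkv14-126 among the 80 heavy segments, ahead of Ighv4-1 at 0.61. Without control LFD replicate 1 rho was 0.89 (19 libraries). The pair was picked after the values were seen, so rho is given as a description with no test. Both shares of a point come from the same library and RNA. The other frequent leaders, Ighv1-26 and Gm16637, led 7 and 8 libraries and shared 4, and their shares had a rho of 0.38. No comparison between groups passed for Ighv11-2, with exact two-sided permutation p between 0.55 and 0.85 in the 4 comparisons of 5 against 5 libraries on log2(TPM + 1). For Igkv14-126 the exact p lay between 0.50 and 0.90, among 168 such tests computed.

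**Figure D4:**
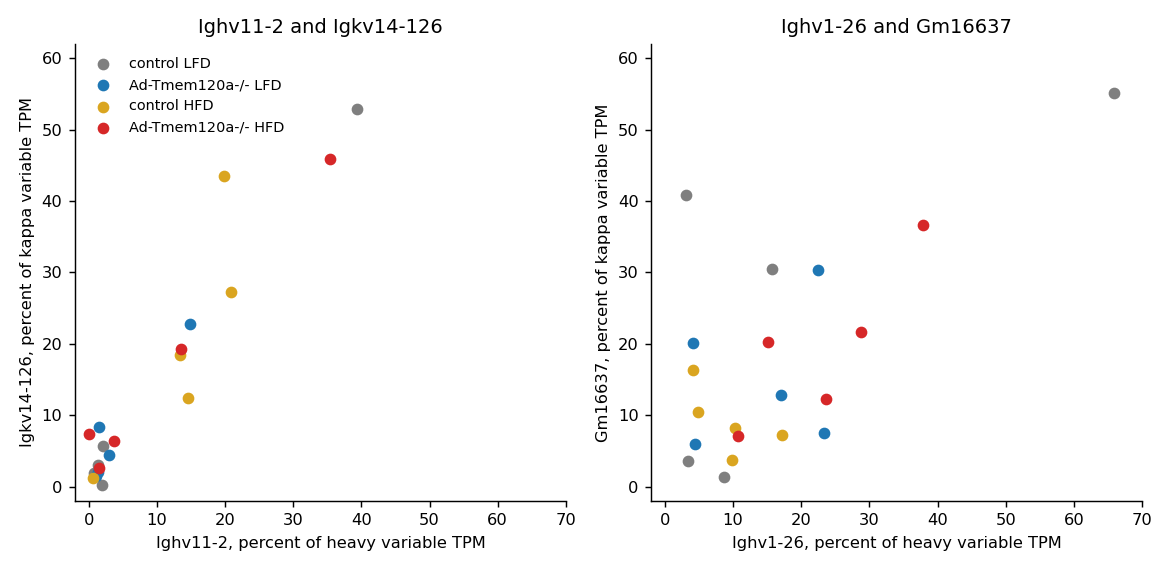
Each point is 1 library, coloured by group: x axis, percent of heavy V TPM held by Ighv11-2 (left) or Ighv1-26 (right), and y axis, percent of kappa V TPM held by Igkv14-126 (left) or Gm16637 (right). On the left the points rise together, up to 39.3% and 52.8% in control LFD replicate 5, while on the right they scatter (rho of 0.38).

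The concentration of heavy V RNA differed in order between groups. It was expressed as an effective number, the count of equally abundant segments that would give the same sum of squared shares. The heavy effective number was 2.43, 5.60, 2.28, 5.02 and 5.81 in control LFD and 13.2, 8.95, 10.7, 15.8 and 16.2 in Ad-Tmem120a-/- LFD libraries, with no overlap. It was 25.2, 19.01, 19.9, 13.46 and 14.7 in control HFD and 6.07, 8.02, 6.59, 11.7 and 11.1 in Ad-Tmem120a-/- HFD libraries, again with no overlap but in the opposite order. By TPM, control LFD libraries lay under those of every other group. From counts in place of TPM the control LFD values ran from 2.21 to 7.26 and stayed under both Ad-Tmem120a-/- LFD (8.61 to 15.0) and control HFD (10.5 to 21.4), while Ad-Tmem120a-/- HFD (5.14 to 14.3) then overlapped both control LFD and control HFD. Control HFD replicate 12, with 972 heavy V counts, had an effective number of 19.01 by TPM, and control LFD replicate 3, with 21710 counts, had 2.28. The number is a summary over the segments and was given no test.

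The kappa effective number had the same lowest group but more overlap. It was 6.70, 7.83, 3.18, 5.58 and 3.44 in control LFD and 16.5, 11.3, 7.04, 13.6 and 10.6 in Ad-Tmem120a-/- LFD libraries, which overlapped by 1 library. It was 14.5, 18.3, 25.3, 8.78 and 4.80 in control HFD and 6.81, 11.3, 4.43, 13.7 and 12.1 in Ad-Tmem120a-/- HFD libraries. The most even library was control HFD replicate 13, in which 9 kappa segments were needed to reach 50% of kappa V TPM. In control LFD replicates 3 and 5, 1 segment sufficed.

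**Figure D5:**
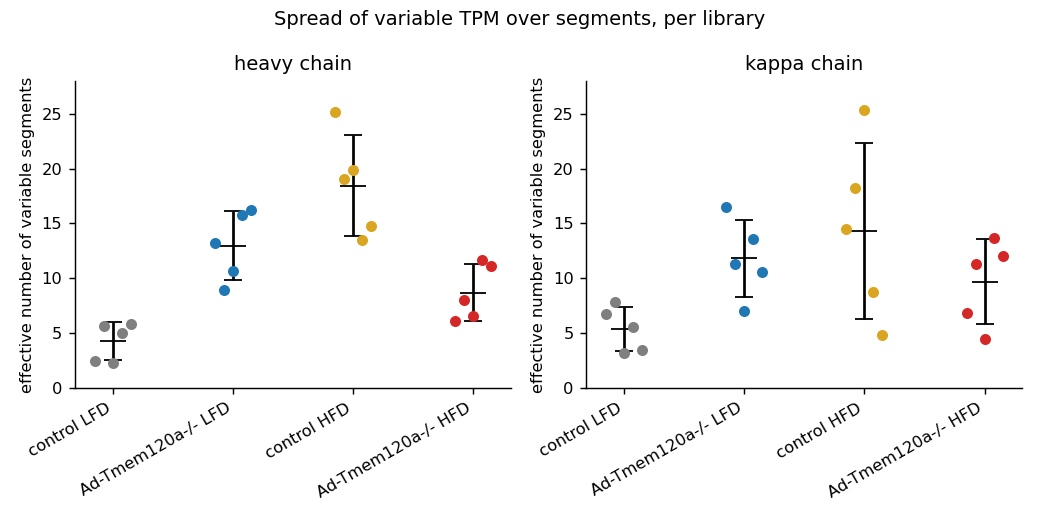
Points are the effective number of V segments in each library (left, heavy chain and right, kappa chain) by group, with bars for the mean and SD (n = 5). Heavy values of control LFD (2.28 to 5.81) lie under those of every other group.

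No member passed the test between genotypes. The comparison asks whether loss of Tmem120a in adipocytes altered these RNAs. On LFD, edgeR's quasi-likelihood test called 0 of 211 members tested at an adjusted p under 0.1, where 0.00636% of all genes were called, and on HFD 0 of 191 against 0.00657%. At an unadjusted p under 0.05 there were 24 members on LFD, beside 803 of all 15717 genes tested, and 17 on HFD, beside 709 of 15228. DESeq2 called Ighv7-1 on LFD (adjusted p = 0.0694), and Ighv1-75 (adjusted p = 0.0281) and Ighv1-39 (adjusted p = 0.0731) on HFD, each higher in Ad-Tmem120a-/-. That was 1 of 196 members beside 17 of 15560 genes on LFD, and 2 of 181 members beside 100 of 15108 genes on HFD. Ighv7-1 passed the filter on low values only through the Ad-Tmem120a-/- libraries. Igkc differed by 0.85 ± 0.64 on the log2 scale (SE) on LFD and by 0.66 ± 0.48 on HFD, with adjusted p of 0.933 and 0.999 by edgeR. Leaving out single libraries gave 0.55 (without control LFD replicate 1) to 1.11 on LFD and 0.38 (without control HFD replicate 12) to 0.92 on HFD. Ighm differed by 1.11 ± 0.39 on LFD (edgeR adjusted p = 0.929) and by -0.01 ± 0.24 on HFD.

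On LFD most immunoglobulin members had a positive log2 difference, 133 of 163, with a median of 1.04 beside -0.02 over all genes tested. On HFD 101 of 156 did, with a median of 0.29 beside 0.01 over all genes. The LFD median was 0.76 without control LFD replicate 1, and the HFD median ran from 0.10 without control HFD replicate 12 to 0.997 without control HFD replicate 13. Markers of other cells moved beside it. Lymph node stroma markers summed to 3.66 to 436 TPM in control LFD and 340 to 793 TPM in Ad-Tmem120a-/- LFD libraries. Glycam1 made up most of each Ad-Tmem120a-/- LFD sum. None of the 4 tested was called, Ccl21a was at 0 in every library, and the part of these markers in the result was not tested. The 16 B cell markers summed to 12.3 to 223 and 127 to 292 TPM in the same groups, with none called. Both sums were lowest in control LFD replicate 1.

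Between genotypes, segments whose groups did not overlap were few. On LFD 4 members lay higher and 1 lower in all Ad-Tmem120a-/- libraries than in any control, 2.37% of the members beside 1.40% of all genes, where the test called 0.00636%. Ighv7-1, Ighv10-1, Igkv1-88 and Igkv1-135 lay higher and Gm13980 lower, and all were V segments. Gm13980 belongs to a T cell receptor locus, and the others are immunoglobulin segments. Ighv7-1 passed the filter on low values only through the Ad-Tmem120a-/- libraries, and Gm13980 only through the control libraries. The filter thus favoured the direction seen for each, and both count toward the 2.37%. Ighv10-1 was at 0.103, 0.734, 1.28, 5.21 and 2.30 TPM in control and 6.46, 17.1, 24.1, 18.2 and 5.49 TPM in Ad-Tmem120a-/- libraries. Igkv1-135 was at 1.83, 5.14, 11.5, 10.2 and 7.32 TPM in control and 23.2, 39.3, 14.2, 12.9 and 51.8 TPM in Ad-Tmem120a-/- libraries. Segments named for groups without overlap have, by that choice, the smallest exact permutation p that 5 against 5 libraries allow (0.00794), so it is no test of them. On HFD 1 member did not overlap, 0.524% of the members beside 0.690% of all genes. This was Ighv7-3, at 1.79, 0.653, 1.499, 1.99 and 4.43 TPM in control and 8.93, 6.52, 5.86, 56.2 and 4.85 TPM in Ad-Tmem120a-/- libraries.

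Between diets, 5 of 198 members passed the edgeR test in control mice, all lower on HFD, where 9.32% of all genes were called. These 5 passed the filter on low values only through the LFD libraries, so a lower level on HFD was favoured by the filter. Ighv1-34 was at 0.108, 0.284, 2.40, 622 and 0 TPM on LFD and at or under 0.489 TPM in all HFD libraries. Its call rests on control LFD replicate 4, without which 0 members were called, since all 5 then fell under the filter on low values. Gm13980, a V segment of the T cell receptor alpha and delta locus, was at 1.23, 0.893, 1.47, 0.975 and 0.449 TPM on LFD and at 0 in 4 of 5 HFD libraries (edgeR adjusted p = 0.0116). It was the 1 member without overlap between diets in control mice, 0.505% of the members beside 9.78% of all genes. Igkv4-58, Igkv4-61 and Trbv12-2 were at or under 5.38 TPM in every control library. Of the constant genes, Ighm lay at 316 ± 121 TPM on LFD and 558 ± 190 TPM on HFD (SD, n = 5), with an edgeR adjusted p of 0.217, and Igkc differed by -0.60 ± 0.72 on the log2 scale (SE), with an edgeR adjusted p of 0.707.

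In Ad-Tmem120a-/- mice 7 of 205 members passed, 6 lower and 1 higher on HFD, where 9.4% of all genes were called. Ighv6-6 was at 30.7, 34.5, 40.9, 68.0 and 139 TPM on LFD and 14.9, 24.6, 10.4, 10.9 and 15.7 TPM on HFD. All 5 HFD values lay under the lowest LFD value. Such a lack of overlap held for 4 members in these mice, all lower on HFD, 1.95% of the members beside 7.95% of all genes. Ighv6-6 fell by 2.14 ± 0.46 on the log2 scale (SE, edgeR adjusted p = 0.0211). Its family member Ighv6-3 was at 27.3, 84.6, 58.9, 46.0 and 63.8 TPM on LFD and 15.7, 20.3, 28.2, 22.8 and 28.5 TPM on HFD, overlapping by 1 LFD library, and fell by 1.37 ± 0.31 (SE, edgeR adjusted p = 0.0255). These 2 segments were 90.8% identical.

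The other calls were less even. Igkv17-121 was at 7.65, 25.4, 25.0, 26.4 and 26.1 TPM on LFD and 4.38, 0, 2.36, 4.99 and 3.65 TPM on HFD. Igkv12-89 was at 3.98, 35.3, 3.82, 12.6 and 109 TPM on LFD and 4.90, 2.75, 5.95, 2.35 and 1.09 TPM on HFD, and Igkv5-39 at 113, 74.6, 253, 7.32 and 266 TPM and 19.4, 27.6, 6.93, 44.2 and 44.9 TPM. Trbv14 drew 6, 56, 8, 0 and 16 counts on LFD and 0 counts in all 5 HFD libraries. It thus passed the filter on low values only through the LFD libraries. The member that rose was Ighv1-39, at 6.54, 5.42, 8.35, 11.2 and 10.8 TPM on LFD and 8.19, 88.6, 17.4, 32.5 and 35.6 TPM on HFD. Leaving out single libraries ended each of these 5 calls. For Igkv5-39 and for Trbv14, 8 different left-out libraries ended the call, for Igkv17-121 7, for Ighv1-39 5 and for Igkv12-89 4. Igkv17-121 had an edgeR adjusted p of 0.101 without Ad-Tmem120a-/- LFD replicate 9. The edgeR adjusted p of Ighv1-39 was 0.134 without Ad-Tmem120a-/- HFD replicate 18, that of Igkv12-89 0.198 and that of Igkv5-39 0.178 without Ad-Tmem120a-/- LFD replicate 10, and Trbv14 fell under the filter on low values without replicate 7.

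Of the 164 immunoglobulin members tested between diets in Ad-Tmem120a-/- mice, 34 had a positive log2 difference, with a median of -1.05 beside 0.00 over all genes. In control mice 53 of 156 did, with a median of -0.49 beside -0.04, which was -0.03 without control LFD replicate 4 and -1.02 without control HFD replicate 13. Igkc differed by -0.79 ± 0.34 in Ad-Tmem120a-/- mice (SE, edgeR adjusted p = 0.214), and DESeq2 called it lower (adjusted p = 0.0786). Glycam1, of the lymph node stroma list, and T cell markers moved with this comparison. Glycam1 was at 294, 616, 738, 281 and 565 TPM on LFD and 91.1, 13.2, 29.0, 149 and 51.7 TPM on HFD in Ad-Tmem120a-/- mice, and fell by 2.82 ± 0.59 on the log2 scale (SE, edgeR adjusted p = 0.0182). It was the 1 of 4 lymph node stroma markers called, and those markers summed to 340 to 793 TPM on LFD and 51.0 to 197 TPM on HFD. Glycam1 made up most of that sum in each LFD library. Which tissue of the depot its RNA came from was not tested. Of 12 T cell markers 2 were called (Cd28 and Cd3e), both lower, and none of the 16 B cell markers. All 6 adipocyte markers had a positive log2 difference on HFD in both genotypes, with Lep called, and summed to 13466 to 18499 TPM on LFD and 18103 to 28317 TPM on HFD in Ad-Tmem120a-/- mice. The part of these lists in the result was not tested.

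The difference between the genotype effects on the diets was called for 0 of 204 members, as for 0 of 15574 genes tested (0%), by edgeR. At an unadjusted p under 0.05 there were 16 members and 560 genes, and DESeq2 called 17 genes and 0 members. The largest constant gene, Igkc, had a difference of -0.21 ± 0.85 on the log2 scale (SE), and Ighm one of -1.13 ± 0.48.

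The T cell receptor genes of the same biotypes were a small part of the RNA, 1.96% to 10.7% of all members' TPM. Trac, the alpha constant gene (chr14:54840196-54842772), was at 4.65, 92.9, 130, 172 and 38.5 TPM in control LFD and 144, 147, 110, 76.2 and 178 TPM in Ad-Tmem120a-/- LFD libraries. It was at 63.0, 68.7, 149, 111 and 225 TPM in control HFD and 90.4, 85.9, 68.2, 138 and 92.7 TPM in Ad-Tmem120a-/- HFD libraries. Trbc2, a beta constant gene, ranged from 1.91 to 54.0 TPM. Neither was called by edgeR in any comparison. Trbc1, Trgc1, Trgc2 and Tcrg-C stayed at or under 11.2 TPM. The share of T cell receptor genes in members' TPM was 2.29% to 3.48% in Ad-Tmem120a-/- HFD and 3.71% to 10.7% in control HFD libraries, and by counts these groups overlapped. Between diets in Ad-Tmem120a-/- mice 4 of 41 T cell receptor members tested had a positive log2 difference, with a median of -1.45 beside 0.00 over all genes and 1 member called (Trbv14).

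Relations of single genes across libraries were computed for 3 pairs on log2(TPM + 1), with 2-sided permutation tests of 100000 resamples. Igj, the joining chain of secreted IgM and IgA, followed Igkc with Pearson's r = 0.96 and Spearman's rho = 0.91 over 20 libraries (both adjusted p = 3e-05 by permutation, resting on the smallest p the resamples can give). Pearson's r was 0.88 without the 2 libraries farthest from the median Igkc, control LFD replicate 1 and control HFD replicate 12, and 0.97 within LFD and 0.97 within HFD libraries. Cd79a followed Igkc less closely, with r = 0.79 and rho = 0.65 (adjusted permutation p = 0.000135 and 0.00396), and r fell to 0.48 without those 2 libraries. For Ighm and Cd79a r was 0.46 (adjusted permutation p = 0.0408) and rho 0.27 (adjusted permutation p = 0.249), and r was 0.15 without control LFD replicate 1 and Ad-Tmem120a-/- LFD replicate 7. Within diets it was 0.37 over 10 LFD and 0.72 over 10 HFD libraries.

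Genes that act on or carry antibody were also measured. Rag1, a recombinase subunit, stayed at or under 0.218 TPM, and Pigr, the transporter of polymeric immunoglobulin across epithelia, at or under 0.649 TPM. None of the germinal centre, early B cell, or receptor and transport genes tested was called by edgeR in any comparison. Of the plasma cell genes, which summed to 200 to 421 TPM, Ell2 alone was called, higher on HFD in both genotypes. Most of that list went the other way. Only 4 of 16 had a positive log2 difference between diets in each genotype. The medians were -0.15 in control and -0.11 in Ad-Tmem120a-/- mice, beside -0.04 and 0.00 over all genes, of which 9.32% and 9.4% were called. Other tissue moved with some comparisons. Between diets in control mice 5 of 6 skeletal muscle genes and the mammary epithelial genes Elf5 and Epcam were called lower on HFD. Skeletal muscle genes summed to 5.97 to 2313 TPM in control LFD, 11.9 to 737 TPM in Ad-Tmem120a-/- LFD, 5.07 to 36.6 TPM in control HFD and 28.9 to 1036 TPM in Ad-Tmem120a-/- HFD libraries. Their part in the immunoglobulin values was not tested.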

How the data were processed

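RNA of 20 iWAT samples was depleted of ribosomal RNA and sequenced in read pairs of 150 bases on a NovaSeq. Per the labels and the submitters' processing notes, reads were aligned to mm9 with STAR 2.5.3 and quantified with Salmon 0.13.1. The authors deposited estimated counts and TPM for 96533 transcripts, of which 94334 matched GENCODE vM1 and were summed to 36611 genes. The members, gene lists and tests were chosen with earlier results of these data known. Named were the constant genes, the 8 V segments highest in mean TPM, segments leading a locus in a library with 15% or more of its V TPM, members past the test (up to 10 by comparison), and the 3 largest rises and falls without overlap by comparison. Ighv12-3 and the other segments discussed beside a named one were added after their values were seen. Estimated counts were rounded and tested with edgeR 4.0.16 (quasi-likelihood, TMM, genes averaging 0.5 TPM or more over the libraries compared, Benjamini-Hochberg adjusted p under 0.1). Single genes were tested by exact permutation on log2(TPM + 1). DESeq2 1.42.0, DESeq2 size factors in edgeR, limma 3.58.1, no filter, 1 fit over all groups, counts in place of TPM for shares, and leaving out each library were alternatives. Reads lack molecular identifiers, so values near the floor of 3 counts rest on reads, not molecules.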

Additional observations from a re-analysis of the deposited data

Results flagged for a closer look

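Of 72 groups of 5 libraries examined over 18 measures, 7 held a library whose gap to the nearest of the others exceeded Dixon's limit. For a single group chance gives about 1 in 20. The measures overlap, since Igkc enters both the summed immunoglobulin level and the heavy chain share, so the flags are not independent. Control LFD replicate 1 accounted for 3. Its Igkc was 154 TPM against 2261 to 4642 TPM in the others of its group, its summed immunoglobulin level 447 TPM against 4467 to 8380 TPM, and its heavy chain share 51.9% against 25.1% to 29.6%. Ad-Tmem120a-/- LFD replicate 9 was low in Igkc, at 2358 TPM against 5556 to 7539 TPM, and in summed immunoglobulin, at 4067 TPM against 9241 to 12478 TPM. Control HFD replicate 12 was low in AI324046, at 0.496 TPM against 6.17 to 9.12 TPM, and had a heavy chain share of 47.9% against 26.3% to 31.6%.

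The heavy V distribution stood out because the genotypes lay in opposite order on the diets. The mean effective number in Ad-Tmem120a-/- was 0.471 times that of control on HFD and 3.06 times on LFD, and the mean share of the largest heavy segment was 1.72 times that of control on HFD and 0.417 times on LFD. The difference was not tested, and by counts the HFD groups overlapped in effective number.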

How the results depend on the processing

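With DESeq2, 2 members were called between genotypes on HFD, 1 on LFD and 17 between diets in Ad-Tmem120a-/- mice. Between diets in control mice, 2 of 325 members were called with no filter, beside 1068 of 24536 genes. With limma on log2(TPM + 1) and log2(TPM + 0.1), 2 and 3 of 198 members were called, beside 2139 and 2148 of 15311 genes. In 1 fit over all 4 groups 3 members were called, beside 1388 of 15311 genes. Leaving out single libraries gave 0 (without control LFD replicate 4) to 6 (without control LFD replicate 1) members called between diets in control mice. In Ad-Tmem120a-/- mice it gave 2 (without Ad-Tmem120a-/- HFD replicate 21) to 11 (without Ad-Tmem120a-/- LFD replicate 9) members. Over the same left-out libraries, 780 to 1845 of all genes were called in control and 753 to 1355 in Ad-Tmem120a-/- mice. Ighv6-6 was called under all 17 alternatives and Ighv6-3 under 16 of 17. The Ighm difference between genotypes on HFD, near 0, changed sign with limma, to 0.0343 and 0.0344 with pseudocounts of 1 and 0.1, and ran from -0.15 to 0.12 over left-out libraries. The Igkc difference between the genotype effects ran from -0.47 to 0.10 over left-out libraries and down to -0.59 over all alternatives. From estimated counts in place of TPM, in the order control LFD, Ad-Tmem120a-/- LFD, control HFD and Ad-Tmem120a-/- HFD, immunoglobulin was 0.143%, 0.274%, 0.133% and 0.168% of the library, the heavy share 65.3%, 60.3%, 75.0% and 66.1%, and the constant share 81.6%, 82.1%, 90.1% and 86.2%. The lambda share was then 5.09% in Ad-Tmem120a-/- LFD and 8.76% in control HFD, and the largest heavy segment 20.8% in control HFD. Over all genes, DESeq2 called 100 and 17 between genotypes on HFD and LFD, and 2205 and 2247 between diets in control and Ad-Tmem120a-/- mice. With limma on log2(TPM + 1) the median of all genes between diets in control mice moved from -0.04 to 0.13, and 1791 of 2139 calls were higher, against 676 of 1427. The causes were not tested. IgA and lambda constant shares were not run. No paired analysis was possible because the groups share no replicate numbers.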
